A study of Mus musculus with 15 samples.

Results

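The pancreatic response to a kinase-dead HPK1 was set against the response to HPK1 itself, gene by gene. The genes were those listed in both raw count tables, matched by Ensembl identifier without its version: 15175 genes, which are all of the genes of the M46 table and part of the 49585 of the HPK1 table. Of these, 14884 had enough counts to be tested. Each gene has 3 values here. The MC effect is the log2 fold change of mice with the kinase-dead mutant M46 (MC) over their control, the HC effect is that of libraries labelled HPK1/B (HC) over theirs, and the difference is the MC effect minus the HC effect. A positive difference is called higher and a negative difference lower.

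All mice were C57BL/6, were treated with cerulein, a secretagogue that injures acinar cells, and each library held RNA of 3 pooled pancreata. The MC experiment had 3 MC libraries (genotype HPK1-M46 transgenic) and 3 controls (genotype B control) at 2 months of age. The HC experiment had 3 libraries labelled HPK1/B and 2 controls labelled WT at 4 months. In both, a CMV-LSL cassette carrying M46 or HPK1 was switched on by the tamoxifen-inducible, acinar-specific Ela-CreERT (Bac-cre), and the mice kept their own HPK1. Control genotype, age and library kit all differed between the experiments (standard Illumina protocols for MC, the KAPA Stranded mRNA-Seq Kit for HC), so the transgene and these features cannot be told apart in the difference.

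HPK1, encoded by Map4k1, is a Ste20-family kinase best known from T and B lymphocytes, where it restrains antigen receptor signals. The exocrine pancreas consists mostly of acinar cells, which make digestive enzymes, and of duct cells. After cerulein, acinar cells lose enzymes and take on duct-like features while leukocytes enter the tissue. Interferons, made by leukocytes and injured cells, act through STAT and IRF factors on a shared promoter element, the interferon-stimulated response element.

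The libraries held between 29766575 and 37829604 counts as deposited. Acinar enzymes took 38.0 to 46.9% of the counts of the shared genes in MC and 42.7 to 56.6% in its controls, but 6.25 to 9.33% in libraries labelled HC and 7.52 to 9.36% in theirs. Xist, expressed from the inactive X chromosome, was at 573 to 959 CPM (counts scaled to the library total) in 4 libraries of the HC experiment, which had 0 counts of Ddx3y, a gene of the Y chromosome. In HC 3, Xist was at 0.753 CPM and Ddx3y at 47.9 CPM. Neither gene is in the M46 table. All other levels in this text are CPM scaled by TMM (trimmed mean of M values, which corrects for a few abundant transcripts), and they compare libraries for 1 gene, not genes with each other.

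Map4k1 (chr7:28982050-29003279, plus strand, GRCm38) was measured first, as the mouse gene of HPK1. Its level was 5.39, 5.86 and 3.38 CPM in the MC controls and 11.9, 9.71 and 10.7 CPM in MC. It was 10.6 and 8.0 CPM in the controls of the other experiment and 5.09, 3.58 and 5.48 CPM in the libraries labelled HC. Thus every MC library lay above its controls, and every library labelled HC lay below its own. The MC effect was 1.13 ± 0.24 (SE; edgeR quasi-likelihood test, adjusted p = 0.0434), the HC effect was -0.98 ± 0.25 (adjusted p = 0.151) and the difference was 2.11 ± 0.35 (adjusted p = 0.0262). Map4k1 thus showed no rise with the HPK1/B label, and its lower level there did not pass. Map4k1 is also a leukocyte gene, so its level in bulk tissue cannot decide whether the labels are right, which was not tested. If HPK1/B and WT were exchanged, every HC effect would change sign, and opposite and same directions would trade places. The species of the transgene's cDNA is not given in the sources used here, so it is not known whether its reads would have been counted to the mouse gene, and every HC direction below is that of libraries labelled HC.

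A gene was called when its adjusted p (Benjamini-Hochberg over the 14884 genes) was at most 0.05 and its log2 value at least 1 in size. The difference was called for 325 genes, 2.18% of those tested: 264 higher (1.77%) and 61 lower (0.41%). The MC effect was called for 241 genes (1.62%), 235 up (1.58%) and 6 down (0.0403%), and the HC effect for 42 genes (0.282%), 37 up (0.249%) and 5 down (0.0336%). Of the 264 genes with a higher difference, 258 had a positive MC effect and a negative HC effect, 4 had both positive and 2 had both negative. Of the 61 lower genes, 60 had a negative MC effect and a positive HC effect. Over all genes tested, 29.5% had the first sign pattern, 31.1% the second, 18.8% were positive in both and 20.6% negative in both. The difference contains both effects, so a called difference favours opposite signs, and these counts are given as a description.

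**Figure D1:**
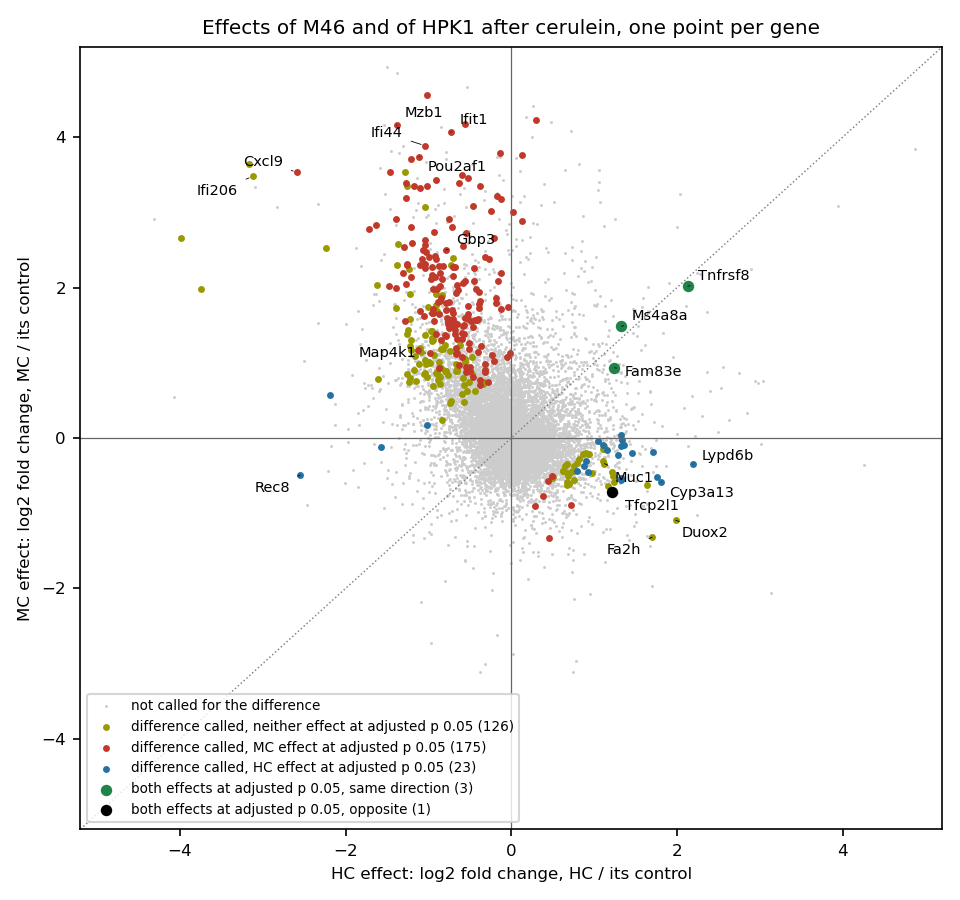
Each point is 1 of the 14884 genes tested, with the HC effect on the x axis and the MC effect on the y axis, both as log2 fold changes; 3 genes lie outside the axes, and colours mark the response classes with their numbers of genes. Genes called higher fill the upper left, genes called lower a smaller group at the lower right, and the 3 genes that passed in both experiments with one direction lie near the dotted line of equal effects.

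The number of calls rested on single libraries, though less on MC 1 and HC 1. It was 459 without MC 1 and 300 without HC 1, beside 325 with all libraries. It was 8 without MC control 1, 1584 without MC control 2, 92 without MC control 3, 8 without MC 2, 83 without MC 3, 181 without HC control 2 and 4 without HC 3, the library with the Y-linked transcripts. It was 0 by the same edgeR test without HC control 1 or without HC 2, where 2143 and 2298 genes still had an unadjusted p of at most 0.05, against 3090 (20.8%) with all libraries. DESeq2 called 1005 genes and limma voom 1858. The 27 named genes called for the difference were called in 7 to 16 alternatives each, of 20, or of 19 for the 5 genes with under 10 counts in a library, with the same sign in every one.

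**Figure D2:**
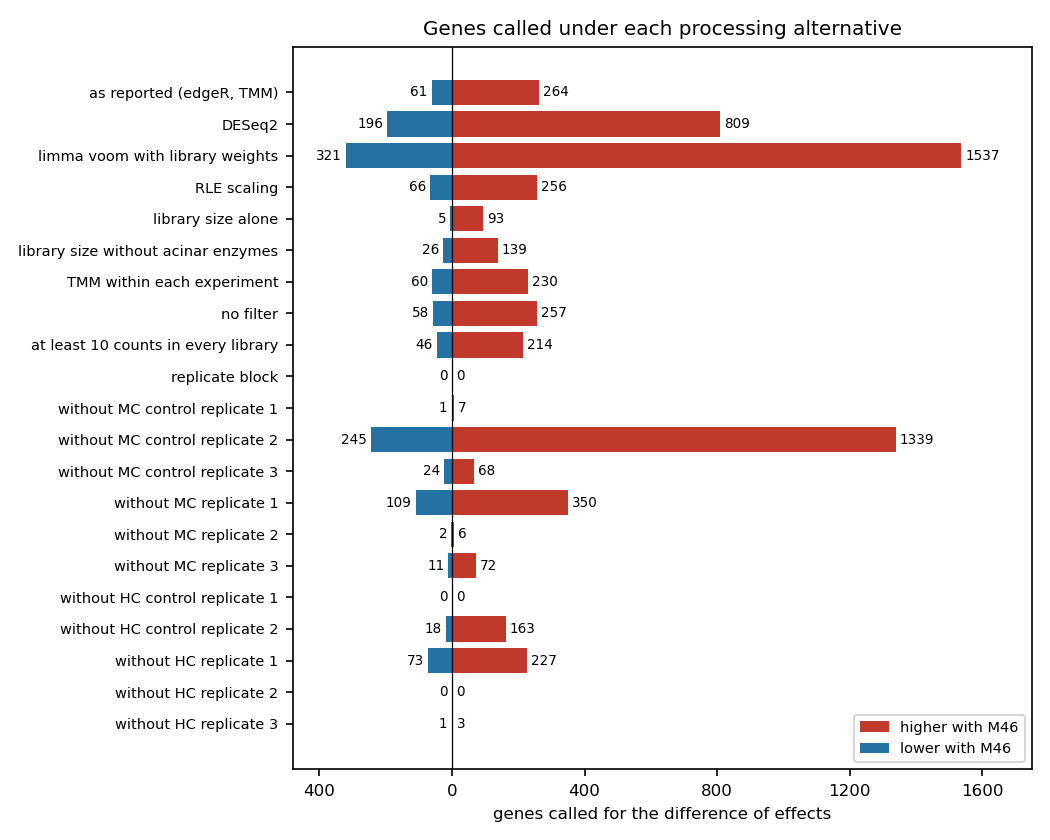
Bars show the number of genes called higher (right) or lower (left) for the difference of effects under each processing alternative and without each library. The counts run from 0 to 1537 higher and from 0 to 321 lower, with 264 and 61 as reported.

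When each effect also had to reach an adjusted p of 0.05, 1 gene (0.00672%) responded in opposite directions and 3 (0.0202%) in the same direction. The difference and the MC effect alone passed for 175 genes (1.18%), of which 165 had a positive MC and a negative HC effect. The difference and the HC effect alone passed for 23 genes (0.155%), 18 of them with a positive HC and a negative MC effect. For the other 126 genes (0.847%) the difference was called but neither effect passed alone. With an unadjusted p of at most 0.05 for each effect, 448 genes (3.01%) had opposite effects, 324 with MC positive and 124 with MC negative, and 106 genes (0.712%) shared a direction, 80 of them upward.

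Of the 264 genes called higher, 46 were in the lists of interferon-stimulated genes and GTPases. Promoter stretches are shown because interferon acts on such genes through a response element that many of them share. Only promoters that hold the element were eligible for printing. B2m and Cxcl10 belong to the lists of MHC class I presentation and T cell-recruiting chemokines. From RefSeq's promoters (GRCm38.p6, 250 bases before to 50 after the start), these stretches upstream of the start of 6 genes called higher are printed 5′ to 3′ on the gene's strand, with capitals for the element (GAAA, any 2 bases, GAAA) or its reverse complement.
Gbp3: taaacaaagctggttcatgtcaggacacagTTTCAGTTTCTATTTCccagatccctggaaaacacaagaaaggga
Ifit1: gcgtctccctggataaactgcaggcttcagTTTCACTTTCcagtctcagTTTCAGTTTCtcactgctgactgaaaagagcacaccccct
Isg15: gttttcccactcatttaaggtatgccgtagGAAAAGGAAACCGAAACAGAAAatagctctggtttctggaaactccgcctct
Bst2: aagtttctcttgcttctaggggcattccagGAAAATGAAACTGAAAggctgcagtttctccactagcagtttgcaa
B2m: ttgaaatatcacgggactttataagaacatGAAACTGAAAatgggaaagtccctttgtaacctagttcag
Cxcl10: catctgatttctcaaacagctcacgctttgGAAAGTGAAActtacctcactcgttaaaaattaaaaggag

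These stretches lie at chr3:142559969-142560043 (plus strand) for Gbp3, chr19:34640755-34640843 (plus) for Ifit1 and chr4:156200845-156200926 (minus) for Isg15. Those of the other genes lie at chr8:71537557-71537632 (minus) for Bst2, chr2:122147518-122147587 (plus) for B2m and chr5:92349063-92349132 (minus) for Cxcl10. The 10 letters, searched on both strands, occurred in 457 of the 11596 promoters matched to a tested gene (3.94%). They occurred in 45 of 200 promoters of genes called higher (22.5%) and in 0 of 41 promoters of genes called lower. Of the called genes in the interferon lists, 21 of 32 promoters held them (65.6%). Of all tested genes in these lists, called or not, 28 of 49 promoters did (57.1%), so most of that share goes with list membership. Of the other genes called higher, 24 of 168 promoters held the letters (14.3%). The AP-1 letters TGANTCA occurred in 6.75% of all these promoters, in 12.5% of those of genes called higher and in 7.32% of those of genes called lower. NF-kB letters (GGGA, any 2 bases, TTCC) were found in 1.73% of all, in 5% of the higher set (10 promoters) and in 0 of the lower set. The ER stress element was in 0.164% of all and in 0 of either set. A match is a description of these letters and not evidence of binding.

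Of 51 tested genes stimulated by type I interferon, the MC effect was called for 45 and the difference for 29, all higher. By edgeR no HC effect was called, and 7 had an unadjusted p of at most 0.05, as did 11.9% of all genes. The median of the 51 was 2.03 for the MC effect, -0.21 for the HC effect and 2.41 for the difference, against -0.01, -0.00051 and -0.03 over all genes tested. In sign, 39 were up in MC and down in HC and 12 were positive in both, against 29.5% and 18.8% of all genes tested. The difference was called higher for 1.77% of all genes tested. Ifit1, which binds viral RNA that lacks a normal cap, had 2.67, 4.46 and 3.51 CPM in the MC controls and 15.8, 73.8 and 89.5 CPM in MC. It had 6.14 and 2.04 CPM in the HC controls and 1.80, 3.40 and 2.19 CPM in the libraries labelled HC, where the groups overlapped. The Ifit1 difference was 4.80 ± 0.89 (adjusted p = 0.0314), made up of an MC effect of 4.07 and an HC effect of -0.73. For Bst2, a membrane tether of budding virus (chr8:71534255-71537456, minus strand), MC had 130, 198 and 292 CPM and its controls 44.7 to 60.8 CPM. Its levels were 27.6 and 16.5 CPM in the HC controls and 13.5 to 14.6 CPM in the libraries labelled HC, so the groups were apart in both experiments. The difference was 2.69 ± 0.41 (adjusted p = 0.0199), with effects of 2.04 in MC and -0.65 in HC.

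Among the largest differences were 2 more interferon-induced genes. Ifi44 (chr3:151730922-151749960, minus strand) had 2.14 to 2.99 CPM in the MC controls and 12.3, 49.1 and 53.5 CPM in MC. Its levels were 2.69 and 0.960 CPM in the HC controls and 0.720 to 1.05 CPM in the libraries labelled HC, where 1 control lay within the HC range. The difference was 4.93 ± 0.79 (edgeR adjusted p = 0.0243), and only the MC effect, 3.89, passed. Ifi206, a DNA-sensor relative of the Ifi200 family, had the largest difference of genes with at least 2 CPM on average, 6.60 ± 1.32 (adjusted p = 0.0351). It rested on 2 and 1 counts in HC 2 and HC 3, which are at or below the floor of 3 counts, and neither effect passed alone. The Ifi200 genes are close copies, and reads may be split between them.

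The interferon-induced GTPases, which attack vacuoles of intracellular pathogens, had 17 of 19 tested genes called higher, 16 with a called MC effect and 0 with a called HC effect by edgeR, where 10 had an unadjusted p of at most 0.05. All 19 had a positive MC and a negative HC effect, with medians of 2.09 and -0.83 and a median difference of 2.95. Of all genes tested, 1.77% were called higher, 29.5% had this sign pattern and 11.9% had such a p for the HC effect. For Gbp3 the MC controls had 11.7, 9.18 and 7.79 CPM and MC had 30.01, 64.3 and 68.1 CPM. The HC controls had 14.2 and 7.95 CPM, and the libraries labelled HC had 7.36, 6.18 and 5.65 CPM, just below the lower control. Its difference was 3.29 ± 0.46 (adjusted p = 0.0188). Tgtp1 and Tgtp2, with differences of 3.48 and 3.46, are near-identical copies whose reads may be shared, as are Ifit3 and Ifit3b in the list above.

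Genes of antigen presentation also differed upward, beside 1.77% of all genes tested that were called higher. Of 21 tested genes of MHC class I presentation 8 were called higher, with medians of 1.01 in MC, -0.24 in HC and 1.44 for the difference; of 12 class II genes 3 were called, with medians of 1.5, -0.61 and 2.03. The class I member with the smallest adjusted p was H2-T24, a nonclassical class I gene, at 6.61 to 8.77 CPM in the MC controls and 17.1, 23.9 and 32.0 CPM in MC. Its HC controls had 5.86 and 4.32 CPM and the libraries labelled HC 2.18 to 2.93 CPM, and the difference was 2.67 ± 0.36 (adjusted p = 0.0188). B2m, the light chain of class I molecules, had a difference of 2.55 ± 0.43 (adjusted p = 0.0262), and Nlrc5, the activator of class I transcription, one of 3.12 ± 0.54 (adjusted p = 0.028). H2-Q6 and H2-Q7 were also called, but they share sequence. The class II chain H2-Aa had 56.4, 53.3 and 35.1 CPM in the MC controls and 119, 126 and 167 CPM in MC. In the other experiment the controls had 625 and 367 CPM and the libraries labelled HC had 330, 242 and 430 CPM, so these groups overlapped. H2-Aa rose by 1.5 ± 0.28 in MC (adjusted p = 0.0258), its HC effect was -0.57, and the difference was 2.08 ± 0.40 (adjusted p = 0.0338).

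Chemokines and complement genes were called in part, beside 1.77% of all genes tested that were called higher. Of 10 T cell-recruiting chemokines 2 were called, Cxcl9 and Cxcl10, and the list had medians of 1.76 in MC, -0.56 in HC and 2.61 for the difference. Cxcl9 (chr5:92321347-92328079, minus strand), an interferon-γ-induced ligand of CXCR3, had 0.844, 0.379 and 1.1 CPM in the MC controls and 5.17, 6.82 and 14.1 CPM in MC. It had 11.1 and 5.96 CPM in the HC controls and 2.46, 1.03 and 0.745 CPM in the libraries labelled HC. The 2 control groups thus began at different levels and the 2 effects had opposite signs, with no overlap in either experiment. Only the MC effect passed. The MC effect was 3.53 ± 0.60 (adjusted p = 0.0193), the HC effect -2.58 ± 0.56 (adjusted p = 0.0972) and the difference 6.12 ± 0.82 (adjusted p = 0.0188). Of 16 monocyte and neutrophil chemokines 1 was called, Ccl8, a monocyte attractant, with a difference of 3.40 ± 0.51 (adjusted p = 0.0193). C4b, a component of the classical complement pathway, rose from 79.8 to 122 CPM in the MC controls to 235, 345 and 280 CPM in MC. It was at 839 and 666 CPM in the HC controls and at 441, 384 and 544 CPM in the libraries labelled HC, and the difference was 2.28 ± 0.31 (adjusted p = 0.0188). C4b has a close copy, C4a. Of 21 complement genes 3 were called, the other two being C1qb and C1qc, subunits of the first complement component, with medians of 1.05 in MC, -0.47 in HC and 1.40 for the difference.

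**Figure D3:**
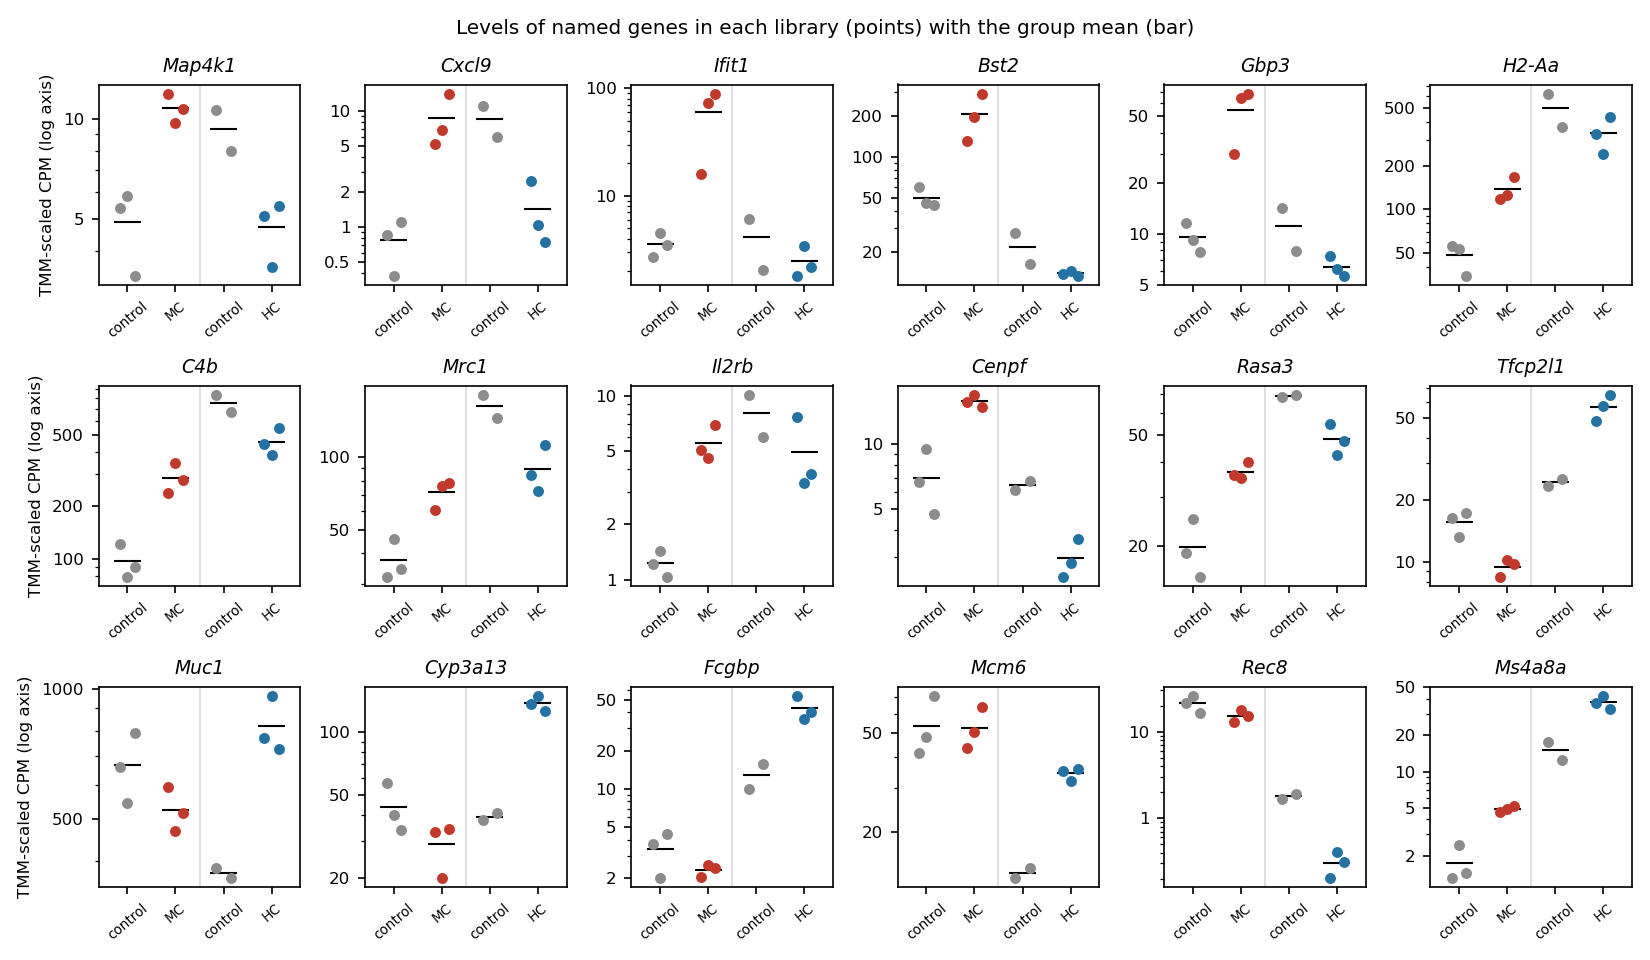
TMM-scaled CPM on log axes for 18 genes, 1 point per library and a bar at the group mean, with the MC experiment left and the HC experiment right of the grey line. Map4k1, Cxcl9, C4b and Mrc1 are high in MC and low in the libraries labelled HC relative to their own controls, while Tfcp2l1 is the reverse.

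Leukocyte markers went with these genes. Ptprc (CD45), carried by nearly all leukocytes, had 19.0, 28 and 12.1 CPM in the MC controls and 54.8, 58.6 and 74.6 CPM in MC; it had 80.3 and 50.4 CPM in the HC controls and 43.5, 24.8 and 33.8 CPM in the libraries labelled HC. Its difference was 2.6 ± 0.45 (adjusted p = 0.028), and Map4k1, itself a leukocyte gene, had the same order of groups within each experiment. In bulk tissue, fewer cells of a type and less RNA per cell cannot be told apart, and the part that leukocyte content had in the Map4k1, interferon, MHC and chemokine values was not tested. Of 29 T and NK cell markers 7 were called higher (medians 2.08 in MC, -0.72 in HC, 2.82 for the difference), and 27 had a positive MC and a negative HC effect, against 1.77% and 29.5% of all genes tested. Their summed level was 11.2 to 15.0 CPM in the MC controls, 39.9 to 55.0 CPM in MC, 76.5 to 128 CPM in the HC controls and 40.2 to 96.7 CPM in the libraries labelled HC. Il2rb, the interleukin-2 receptor β chain, had 1.04 to 1.43 CPM in the MC controls and 5.08, 4.57 and 6.96 CPM in MC, against 10.2 and 5.99 CPM and then 7.73, 3.37 and 3.77 CPM in the HC experiment, where the groups overlapped. Its difference was 2.86 ± 0.52 (adjusted p = 0.0313).

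Of 17 B cell markers 3 were called higher, Cd22, Fcrla and Pou2af1, against 1.77% of all genes tested. The list's medians were 3.46 in MC, -1.08 in HC and 4.11 for the difference. Within MC the B cell genes were uneven. Without MC 1 the MC median was 1.99 and the median difference 2.95. Their summed level was 236, 92.7 and 62.0 CPM in MC 1, MC 2 and MC 3, against 26.1 to 50.9 CPM in the controls. Cd22, an inhibitory receptor of B cells, had 0.779 to 2.36 CPM in the MC controls and 16.8, 5.95 and 4.78 CPM in MC; it had 5.80 and 4.59 CPM in the HC controls and 2.77, 1.55 and 2.04 CPM in the libraries labelled HC. Its difference was 3.83 ± 0.73 (adjusted p = 0.033). The B cell-defining Ms4a1 did not pass, with a difference of 6.43 ± 1.57 (adjusted p = 0.0577), and its level in MC ranged from 0.703 to 20.3 CPM. Mzb1, an ER protein of antibody-secreting cells, and Pou2af1, a B cell coactivator, had differences of 5.54 ± 1.1 (adjusted p = 0.0348) and 4.85 ± 1.07 (adjusted p = 0.0449). Mzb1 had 0.141 to 0.379 CPM in the MC controls and 11.2, 2.29 and 1.12 CPM in MC, but 19.5 and 24.4 CPM in the HC controls and 7.24 to 9.31 CPM in the libraries labelled HC. Pou2af1 had 0.130 to 0.758 CPM and 13.2, 3.43 and 1.23 CPM in the MC experiment, and 17.8 and 22.6 CPM and 8.68 to 10.4 CPM in the other. In the MC controls Mzb1 had 3, 9 and 4 counts and Pou2af1 7, 18 and 2, near the floor of 3. For both, MC 1 was the highest MC library and the libraries labelled HC lay below their controls.

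Of 24 macrophage and monocyte markers 5 were called higher, against 1.77% of all genes tested. The list's medians were 0.97 in MC, -0.83 in HC and 1.79 for the difference. Mrc1, the mannose receptor of tissue macrophages, had 32.0, 45.8 and 34.5 CPM in the MC controls and 60.4, 75.6 and 78.5 CPM in MC. It had 181 and 145 CPM in the HC controls and 84.3, 72.1 and 112 CPM in the libraries labelled HC. Its difference was 1.80 ± 0.29 (adjusted p = 0.0232), with almost equal effects of 0.93 and -0.87. The macrophage-defining Adgre1 did not pass, with 103 CPM in MC control 2 beside 37.3 and 31.9 CPM in the other two controls. Of 11 neutrophil markers 0 were called for the difference by edgeR, 0 had an unadjusted p of at most 0.05, and DESeq2 called 0 and limma voom 3.

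The control levels of the 2 experiments differed. Of the 264 genes called higher, 220 (83.3%) had a higher mean in the HC controls than in the MC controls, against 52.4% of all genes tested and 28 of the 61 genes called lower (45.9%). For H2-Aa and C4b, every library of the HC experiment was above every library of the MC experiment. The difference adds the HC control level and subtracts the MC control level. Genes called higher are thus selected in part for this order and genes called lower for the reverse, so these shares are a description. Control levels were set side by side across library kits and ages, and were not tested.

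**Figure D4:**
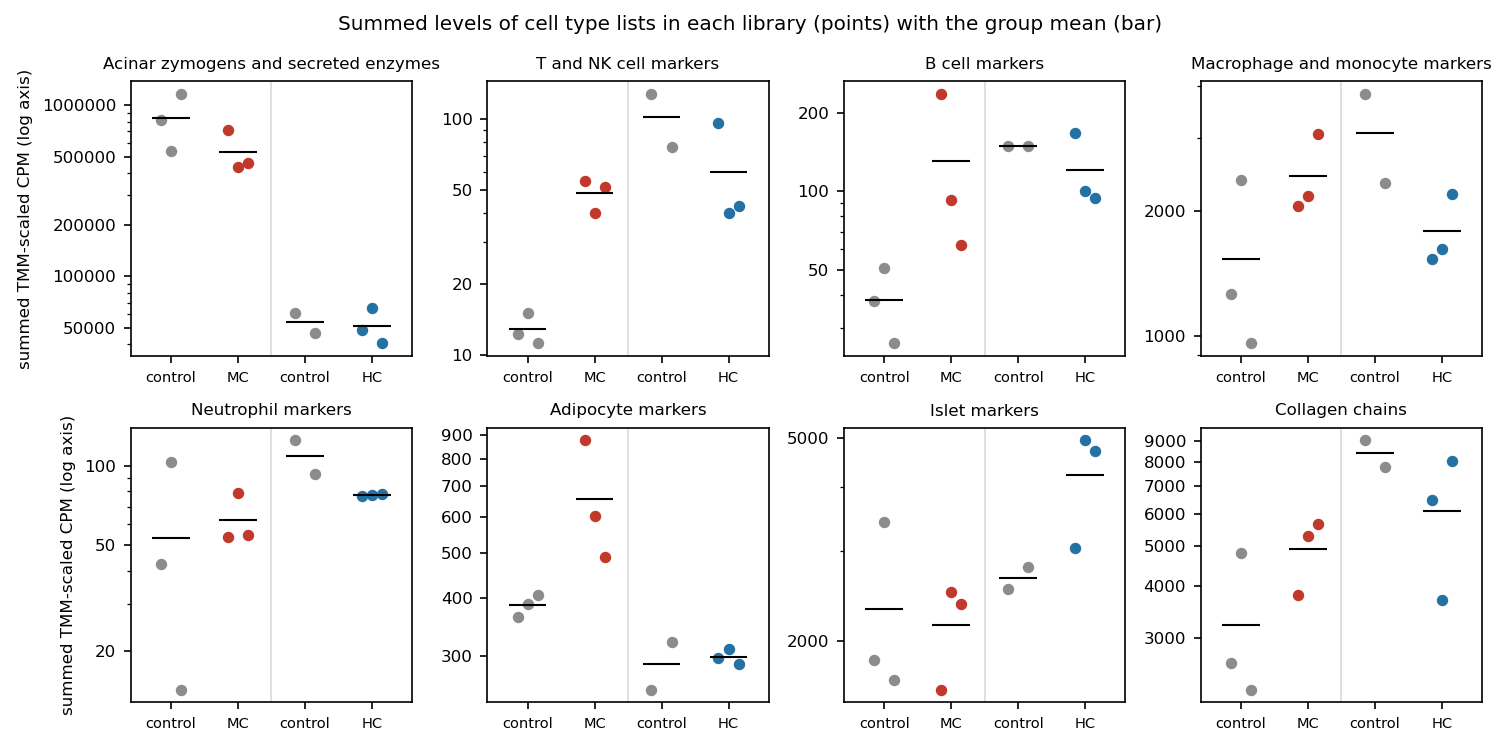
Summed TMM-scaled CPM of 8 lists, 1 point per library and a bar at the group mean, on log axes. T and NK cell, B cell and macrophage lists are higher in MC than in its controls on average and lower in the libraries labelled HC than in theirs; the acinar enzyme sum runs from 436300 to 1159000 in the MC experiment and from 40520 to 64930 in the HC experiment.

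Of 39 tested mitotic genes 11 were called higher, and the HC effect was called for 0 by edgeR (23 at an unadjusted p of at most 0.05). By sign 38 had a positive MC and a negative HC effect, with medians of 0.87 and -0.80 and a median difference of 1.68. For 19, both effects had an unadjusted p of at most 0.05 in opposite directions. Over all genes tested, 1.77% were called higher, 29.5% had this sign pattern, 11.9% had such a p in HC and 3.01% such opposite effects. Cenpf, a kinetochore protein made in late S phase to mitosis, had 6.71, 9.52 and 4.74 CPM in the MC controls and 15.7, 17.0 and 14.9 CPM in MC. It had 6.14 and 6.78 CPM in the HC controls and 2.44, 2.81 and 3.66 CPM in the libraries labelled HC, with no overlap in either experiment. Cenpf rose by 1.17 ± 0.24 in MC (adjusted p = 0.0373), its HC effect was -1.12 ± 0.26 (adjusted p = 0.113) and the difference was 2.29 ± 0.35 (adjusted p = 0.0199). Mki67, the proliferation marker Ki-67, had a difference of 2.03 ± 0.47 (adjusted p = 0.0496). Of the genes that license and copy DNA, 1 of 35 was called in each direction: Uhrf1, which keeps DNA methylation, at 1.22 ± 0.26 and the helicase subunit Mcm6 at -1.36 ± 0.29 (both adjusted p = 0.0412). Mcm6 was at 13.0 and 14.3 CPM in the HC controls and 35.1, 32.1 and 35.9 CPM in the libraries labelled HC, while in the MC experiment the controls (41.4 to 70.9 CPM) and MC (43.6 to 63.8 CPM) overlapped.

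Regulators of Ras were listed because the study asked about HPK1 and RasGAP. The study assayed the phosphorylation and activity of RasGAP, and the RNA levels here measure neither. Of 23 GTPase-activating proteins and exchange factors 4 were called higher, against 1.77% of all genes tested. The 4 were the RasGAPs Rasa3 and Rasa4 and the exchange factors Rasgrp1 and Rasgrp3, which lymphocytes use. Rasa3 had 18.8, 24.9 and 15.5 CPM in the MC controls and 36.0, 34.9 and 39.9 CPM in MC. It had 68.2 and 69.8 CPM in the HC controls and 54.6, 42.4 and 47.7 CPM in the libraries labelled HC, and its difference was 1.42 ± 0.24 (adjusted p = 0.0262). Rasgrp1 had the largest difference of the list's called members, 3.05 ± 0.53 (adjusted p = 0.028). Rasa1, which encodes p120 RasGAP, had an MC effect of -0.01, an HC effect of -0.33 and a difference of 0.32 ± 0.16 (adjusted p = 0.299), and Nf1, the neurofibromin RasGAP, a difference of 0.42 ± 0.20 (adjusted p = 0.281). Of 19 ERK feedback and target genes 0 were called for the difference by edgeR and 0 by DESeq2, against 9 by limma voom. By edgeR 5 had an unadjusted p of at most 0.05, as did 20.8% of all genes tested. For the MC effect 13 had such a p, as did 2966 of all 14884 genes. In sign, 11 were positive in MC and negative in HC, and 8 were positive in both, against 29.5% and 18.8% of all genes tested. The medians of the 19 genes were 0.77 in MC, -0.02 in HC and 0.80 for the difference. Among them Etv5, an ERK-induced ETS factor, was at 65.9 and 71.3 CPM in MC 3 and MC 2 but at 15.7 CPM in MC 1, beside 11.1 to 23.8 CPM in the controls, and its difference was 1.73 ± 0.66 (adjusted p = 0.169). In the list of Map4k kinases and the JNK cascade, Map4k1 was the only one of 17 called, and Map4k4 (0.12 ± 0.17), Map4k2 (0.03 ± 0.22) and Map4k3 (0.33 ± 0.18) had small differences that did not pass (adjusted p = 0.728, 0.951 and 0.336).

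Of 28 NF-kB target and feedback genes 1 was called, Traf1 (2.58 ± 0.59, adjusted p = 0.0483), with medians of 0.47 in MC and -0.22 in HC; DESeq2 called 7, limma voom 12, and 12 had an unadjusted p of at most 0.05. Of 27 AP-1 and immediate early genes 1 was called, Klf2 (1.25 ± 0.28, adjusted p = 0.0483), with 2 by DESeq2, 4 by limma voom and 3 at an unadjusted p of at most 0.05. Of 21 IL-6 family and STAT3 genes 0 were called by edgeR, 2 by DESeq2 and 8 by limma voom, and 7 had an unadjusted p of at most 0.05. Over all genes tested, 20.8% had such an unadjusted p for the difference by edgeR.

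Among the 61 genes called lower was Tfcp2l1 (chr1:118627945-118685168, plus strand), a transcription factor of duct and tubule epithelia and the 1 gene with both effects past an adjusted p of 0.05 in opposite directions. Its level was 16.3, 13.2 and 17.1 CPM in the MC controls and 8.46, 10.2 and 9.70 CPM in MC. It was 23.3 and 25.3 CPM in the HC controls and 48.1, 56.8 and 64.8 CPM in the libraries labelled HC. The groups were apart in both experiments. Tfcp2l1 fell by 0.71 on the log2 scale in MC (SE 0.15, adjusted p = 0.0397) and rose by 1.22 ± 0.16 in the libraries labelled HC (adjusted p = 0.0228). The difference, -1.93 ± 0.22, had the smallest adjusted p of the 61 genes called lower, 0.0112.

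Of 25 ductal and metaplasia genes 2 were called lower, the cell-surface mucin Muc1 and the keratin Krt19, both found in duct-like cells. Muc1 had 661, 545 and 791 CPM in the MC controls and 592, 469 and 516 CPM in MC, which overlapped. It had 386 and 366 CPM in the HC controls and 771, 964 and 725 CPM in the libraries labelled HC, which lay apart. Its difference was -1.46 ± 0.27 (adjusted p = 0.0309), and that of Krt19 was -1.45 ± 0.29 (adjusted p = 0.0365). The duct genes Sox9 (-0.16 ± 0.29, adjusted p = 0.784) and Cftr (0.46 ± 0.38, adjusted p = 0.52) did not pass, and the list's median difference was -0.24 with an HC median of 0.26.

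The 5 largest lower differences were those of Duox2, Fa2h, Lypd6b, Cyp3a13 and Fcgbp. Duox2, which makes hydrogen peroxide at mucosal surfaces, had 3.75, 2.57 and 9.81 CPM in the MC controls and 2.02 to 3.04 CPM in MC, and 92.0 and 60.5 CPM in the HC controls against 334, 335 and 237 CPM in the libraries labelled HC. Its difference was -3.08 ± 0.61 (adjusted p = 0.0348), while neither effect passed. Fa2h, which hydroxylates fatty acids of sphingolipids, had 2.53, 1.22 and 2.53 CPM in the MC controls and 0.967, 0.941 and 0.597 CPM in MC, and 2.46 and 2.85 CPM against 6.71, 11.4 and 7.80 CPM in the HC experiment. No groups of Fa2h overlapped, and its difference was -3.02 ± 0.49 (adjusted p = 0.0262). For the other three, the HC effect passed and the MC effect did not. Cyp3a13, a drug-metabolising cytochrome, had 37.6 and 40.9 CPM in the HC controls and 136, 150 and 127 CPM in the libraries labelled HC, against 33.8 to 56.8 and 20 to 34.3 CPM in the MC experiment. It rose by 1.81 ± 0.26 in the libraries labelled HC (adjusted p = 0.0228) and differed by -2.39 ± 0.34 (adjusted p = 0.0188). Fcgbp, a protein of mucus, went from 9.93 and 15.6 CPM to 54.0, 35.2 and 40.3 CPM in the HC experiment (difference -2.28 ± 0.42, adjusted p = 0.0325). Lypd6b went from 2.34 and 2.58 CPM to 8.12, 14.6 and 11.1 CPM there (difference -2.54 ± 0.46, adjusted p = 0.0304).

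Other epithelial genes among the 61 lower, picked after their values were seen, were the epithelial factors Elf3 (-1.20 ± 0.20, adjusted p = 0.0274) and Esrp1 (-1.02 ± 0.20, adjusted p = 0.033). The tight junction protein Ocln (-1.13 ± 0.25, adjusted p = 0.0483), the protease inhibitors Spint1 and Spint2 and the protease Tmprss2 (-1.51 ± 0.29, adjusted p = 0.0341) were also called. The receptor Glp1r, in the islet list but also found on acinar cells, had 59.7 and 60.4 CPM in the HC controls and 156, 161 and 134 CPM in the libraries labelled HC, and 15.3 to 26.2 against 13.7 to 14.2 CPM in the MC experiment (difference -1.86 ± 0.25, adjusted p = 0.0188). It was the only one of 25 islet markers called. Lrrc26, a potassium channel subunit of secretory epithelia, rose with the HC label alone, from 13.4 and 13.2 CPM to 28.3, 38.7 and 33.5 CPM, with a difference of -1.89 ± 0.40 (adjusted p = 0.0384).

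Metabolic lists gave 0 calls by edgeR's test of the difference. Of 47 respiratory chain subunits, 39 had a negative MC and a positive HC effect (31.1% of all genes tested did), with medians of -0.13 and 0.27. The same held for 20 of 29 fatty acid oxidation genes, with medians of -0.13 and 0.21. The medians of the 25 cholesterol synthesis genes were 0.01 in MC and 0.52 in HC, and those of 25 metallothionein and NRF2 genes -0.05 and 0.48. A negative MC and a positive HC effect (31.1% of all genes tested) was seen in 11 of the cholesterol and 15 of the NRF2 genes. Positive in both (18.8% of all genes tested) were 13 and 9. The HC effect had an unadjusted p of at most 0.05 for 17 of the cholesterol and 14 of the NRF2 genes, against 11.9% of all genes. Of all genes tested, 20.8% had an unadjusted p of at most 0.05 for the difference by edgeR. The number in these lists was 14 for the respiratory chain, 9 for fatty acid oxidation, 10 for cholesterol synthesis and 12 for NRF2. DESeq2 called 0, 1, 1 and 1 of them, and limma voom 0, 1, 3 and 3. Sqle of cholesterol synthesis passed the fold but not the adjusted p, with a difference of -1.16 ± 0.27 (adjusted p = 0.0564).

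Rec8, a cohesin subunit of meiosis, passed for the HC effect and not for the MC effect. It had 1.68 and 1.90 CPM in the controls and 0.205, 0.405 and 0.307 CPM in the libraries labelled HC, a log2 change of -2.55 ± 0.29 (adjusted p = 0.0228). In the MC experiment it had 16.4 to 26.2 CPM in the controls and 12.8 to 17.6 CPM in MC, which overlapped (effect -0.49, edgeR unadjusted p = 0.0392). Its difference was 2.06 ± 0.36 (adjusted p = 0.03), so Rec8 was called higher although both effects were negative.

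The 3 genes that rose in both experiments were Ms4a8a, Fam83e and Tnfrsf8. Ms4a8a, a membrane protein of the MS4A family, had 1.31, 2.44 and 1.43 CPM in the MC controls and 4.64, 4.91 and 5.2 CPM in MC, and 17.6 and 12.5 CPM in the HC controls and 37.2, 42.7 and 33.3 CPM in the libraries labelled HC. Its effects were 1.49 ± 0.24 (adjusted p = 0.0172) and 1.33 ± 0.23 (adjusted p = 0.0435), and they differed by 0.16 ± 0.32 (adjusted p = 0.811). Fam83e went from 2.27 to 2.49 CPM up to 3.67, 4.1 and 5.80 CPM with M46 and from 33.0 and 31.6 CPM up to 66.5, 84.4 and 79.3 CPM with the HC label, and its effects were 0.93 ± 0.18 and 1.25 ± 0.17 (adjusted p = 0.0337 and 0.0228). Tnfrsf8 (CD30), a receptor of activated lymphocytes, had 2, 3 and 3 counts in the MC controls, at the floor, and 14, 18 and 11 counts in MC. Its summed counts of 43 in MC and 8 in the controls gave a ratio of 4.12 (exact 95% interval 1.91 to 10.1, counting error only). In the HC experiment it went from 2.14 and 1.80 CPM to 9.52, 9.49 and 6.88 CPM (effect 2.13 ± 0.28, adjusted p = 0.0228). All 3 lay above their controls in every library of both experiments. They were picked because both effects passed in these libraries, which favours such a separation, so this is a description.

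Lists of acinar function, matrix and growth gave 0 calls of the difference by edgeR. Beside the counts below, 20.8% of all genes tested had an unadjusted p of at most 0.05 for the difference by edgeR. Of 45 ribosome biogenesis factors 39 were negative in both experiments (20.6% of all genes tested were), with medians of -0.28 in MC and -0.18 in HC. By edgeR 18 had an unadjusted p of at most 0.05 for the MC effect, beside 2966 of all 14884 genes. For the HC effect 2 had such a p, beside 11.9% of all genes. The difference was called for 0 by edgeR, DESeq2 or limma voom, with 4 at an unadjusted p of at most 0.05. The 40 genes of the unfolded protein response and ER folding had medians of -0.25 and -0.05 and 0 calls by edgeR and DESeq2, 2 by limma voom and 7 at an unadjusted p of at most 0.05, among them the chaperone Hspa5 (difference -0.29 ± 0.32, adjusted p = 0.637). The 30 acinar enzymes had medians of -0.55 and -0.07, with 0 differences called by edgeR, 1 by DESeq2, 3 by limma voom and 1 at an unadjusted p of at most 0.05. For 20 collagen chains and 34 stellate cell and matrix genes the medians were 0.64 and 0.59 in MC and -0.50 and -0.54 in HC. Of them, 18 and 30 were positive in MC and negative in HC, against 29.5% of all genes tested. Of these lists edgeR called 0 and 0, DESeq2 2 and 3, and limma voom 6 and 17, and 11 and 18 had an unadjusted p of at most 0.05. Col1a1 was at 227, 379 and 880 CPM in the MC controls and differed by 1.13 ± 0.73 (adjusted p = 0.405). Of 6 Reg family genes 0 were called by edgeR, 1 by DESeq2 and 2 by limma voom, and 2 had an unadjusted p of at most 0.05. Reg3g, a C-type lectin of the injured pancreas, came nearest at 2.40 ± 0.59 (adjusted p = 0.0578).

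**Figure D5:**
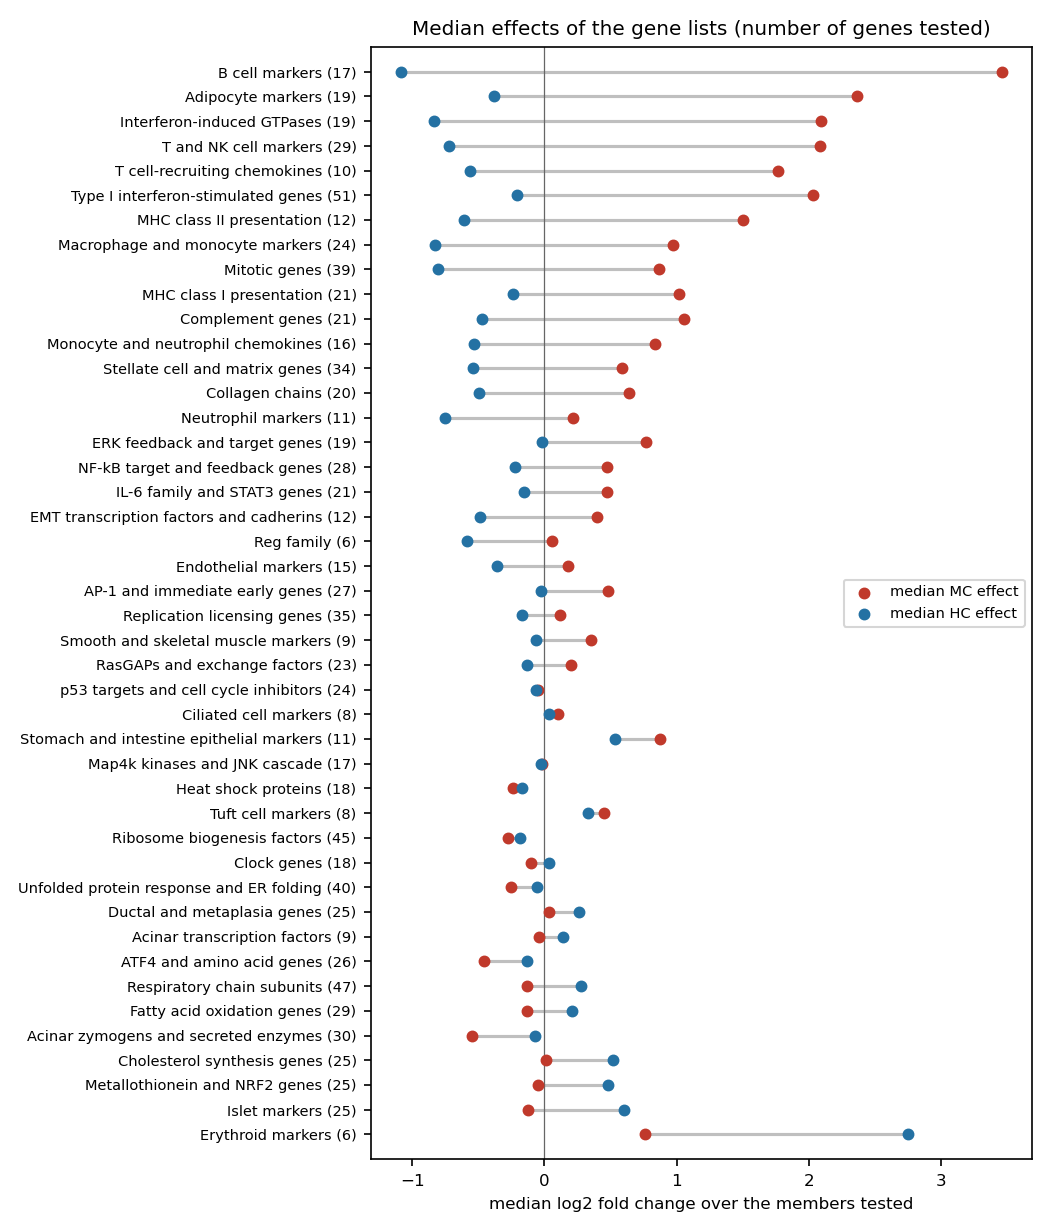
Median MC effect (red) and median HC effect (blue) of the tested members of each of 44 gene lists, as log2 fold changes, sorted by the median difference. Immune, interferon and mitotic lists lie right of 0 in MC and left of 0 in HC; respiratory chain, NRF2 and islet lists are the reverse.

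Markers of other tissues also differed between libraries. The 19 adipocyte markers had medians of 2.36 in MC and -0.38 in HC and a median difference of 3.73 (0.82 without HC control 2, where the HC median was 0.99), with 1 called, the adrenergic receptor Adrb3 (3.73 ± 0.75, adjusted p = 0.0352), whose level was at most 1.69 CPM. Their summed level was 364 to 407 CPM in the MC controls, 491 to 877 CPM in MC and 253 to 322 CPM in the HC experiment. The 6 erythroid markers had medians of 0.76 and 2.75, and Hbb-bs, an adult β-globin, was at 334 and 255 CPM in HC 2 and HC 3 but at 28.6 CPM in HC 1. Gkn3, of the stomach lining, was the only gut epithelial marker called, at 1.88 to 4.76 CPM in the MC controls, 26.9 to 76.7 CPM in MC and 599 to 834 CPM in the HC experiment (difference 3.93 ± 0.56, adjusted p = 0.0188). Summed over the 11 tested stomach and intestine markers, the level was 3193 to 4134 CPM in the libraries labelled HC. It was 1621 to 2342 CPM in their controls, so these groups lay apart. In MC it was 466 to 817 CPM and in the MC controls 445 to 1150 CPM, which overlapped. The source of these transcripts and their part in the results were not tested.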

How the data were processed

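RNA-Seq of 11 of the 15 libraries of the series was used. The KC and KMC libraries were not used here. Per the labels, the authors made raw counts per gene, with no normalization; the sources name bcl2fastq 2.17.14, STAR 2.6.1a, HTSeq 0.6.1, DESeq2, GRCm38 and GENCODE. How the 15175 genes of the M46 table were chosen is not given in the sources used here. The deposited table of the authors' own fold changes and p-values was not used. Symbols and positions came from GENCODE for 15164 genes and from the count table for 11.

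Counts of the shared genes were filtered (filterByExpr), scaled together (TMM) and fitted as 4 groups with edgeR 4.0.16 (glmQLFit, glmQLFTest; R 4.3.3). P-values were Benjamini-Hochberg adjusted over 14884 genes; SE is the log2 value divided by the square root of F. Nothing says that libraries came from separate experiments, so p-values measure the spread between these pools of 3 mice. No libraries were duplicates: chi-square per gene between replicates was 46.2 to 174. On simulated counts of the 14884 genes, 83.5% of 200 genes with a true difference of 2 were called, and 6 unchanged genes. The 200 genes were drawn from those with higher mean counts, and only MC was shifted. Libraries were simulated as independent with the fitted spread, so these values do not carry over to genes with few counts or to single deviating libraries. A gene with at most 3 counts was at the floor (0.0533 to 0.195 CPM); Wilson 95% intervals of acinar shares were within 0.02 percentage points. Intervals and floors cover counting error only.

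Members, gene lists (44, with 1010 genes) and tests were chosen with earlier results of these data known. Named genes were Map4k1, the 5 largest differences each way with a mean of at least 2 CPM, the called member with the smallest adjusted p of each list with 2 or more calls, and the leading genes of each response class. Alternatives were DESeq2 1.42.0, limma 3.58.1 voom with library weights, other scalings and filters, a replicate block and leaving out each library.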

Additional observations from a re-analysis of the deposited data

Results flagged for a closer look

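The 2 experiments differed under the same contrast for 264 genes upward and 61 genes downward. The named genes with a higher difference, each tested by the edgeR interaction contrast, were Ifi206 (6.60), Cxcl9 (6.12), Mzb1 (5.54), Ifi44 (4.93), Pou2af1 (4.85), Ifit1 (4.80), Cd22 (3.83) and Gbp3 (3.29). With smaller differences followed Il2rb (2.86), Bst2 (2.69), H2-T24 (2.67), Cenpf (2.29), C4b (2.28), Map4k1 (2.11), H2-Aa (2.08), Rec8 (2.06), Mrc1 (1.80) and Rasa3 (1.42). The named genes with a lower difference were Duox2 (-3.08), Fa2h (-3.02), Lypd6b (-2.54), Cyp3a13 (-2.39), Fcgbp (-2.28), Tfcp2l1 (-1.93), Lrrc26 (-1.89), Muc1 (-1.46) and Mcm6 (-1.36). All values are log2.

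Outside the shared genes, Ddx3y stood at 47.9 CPM in HC 3 and at 0 counts in the other 4 libraries of its experiment, which allows up to 0.0793 to 0.0944 CPM there.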

How the results depend on the processing

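Under every alternative the genes called for the difference kept its sign (325 of 325, or 268 of the 268 still tested with at least 10 counts in every library), but a gene far from 0 with all libraries is unlikely to change sign when 1 is left out, and the number of calls did move. In the order of the difference (325), the MC effect (241), the HC effect (42), opposite (1), same (3), MC only (175), HC only (23) and difference alone (126), DESeq2 called 1005, 607, 179, 48, 23, 536, 124 and 304 genes. Of the 325, DESeq2 called 318. Limma voom with library weights called 1858, 1421, 215, 143, 62, 1412, 111 and 209, including 320 of the 325. Scaling by library size alone called 98, 225, 0, 0, 0, 83, 0 and 15 (847 HC effects at an unadjusted p of at most 0.05) and moved the median of all genes to 0.34 for the difference and 0.30 for the MC effect. Library size without acinar enzymes called 165, 148, 15, 0, 1, 90, 11 and 64, with a median difference of 0.13 over all genes. Relative to these shifts the interferon and leukocyte lists still lay higher. With at least 10 counts in every library, the HC effect was called for 13 genes, same for 1 and HC only for 10. Of the 325 genes called for the difference, 268 were still tested there and 249 still called. What lowered these counts was not tested. RLE scaling, TMM within each experiment and no filter moved no count by over 1.5 times.

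Whether the replicate numbers pair the samples was not settled. The correlations of same-numbered deviations were 0.0659, 0.272 and -0.216 in the MC experiment and 0.239 and 0.236 in the HC experiment. Those of differently numbered libraries ran from -0.335 to 0.285 and from -0.239 to 0.0686. With 2 HC controls the deviations of the controls are mirror images, so the HC values cannot decide it. A fit with the replicate block called 0 differences (2682 at an unadjusted p of at most 0.05), 1 MC effect and 0 HC effects (1490), and 0 genes in each response class. The block also used up degrees of freedom, and what else lowered the counts was not tested.

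Leaving out each library in turn gave 0 to 1584 calls for the difference, 1 to 1184 for the MC effect (1 without MC control 1, 1184 without MC control 2, 4 without MC control 3, 12 without MC 2 and 128 without MC 3) and 0 to 78 for the HC effect (0 without HC control 1, HC control 2 or HC 2, and 1 without HC 3). The classes ranged over 0 to 17 for opposite, 0 to 11 for same, 0 to 1152 for MC only, 0 to 45 for HC only and 0 to 370 for difference alone; the cause was not tested. Without either HC control, the lone control was assumed to vary like the other groups. The median difference of the type I interferon list stayed between 1.84 and 2.86 and that of the GTPases between 2.54 and 3.38, but that of adipocyte markers ran from 0.82 to 4.23 and that of B cell markers from 2.95 to 4.62 (1.44 with at least 10 counts in every library). Of 44 lists, 21 median differences, 32 MC and 35 HC medians moved by over 1.5 times or changed sign without 1 library; 6, 11 and 12 changed sign. For the genes that rose in both experiments, the small difference changed sign: Tnfrsf8 to 0.205 with limma voom, 0.244 with library size alone, 0.0309 without acinar enzymes, and 0.144, 0.0989 and 0.00603 without MC control 3, MC 3 and HC control 2 (from -0.323 without MC control 1); Fam83e to 0.0799 with library size alone; Ms4a8a to -0.0185 without MC control 1 and -0.111 without HC control 1 (up to 0.517 without MC control 2). Counts were near the floor for genes such as Tnfrsf8, Ifi206, Mzb1 and Pou2af1.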

Other observations

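The HPK1 table, but not the M46 table, holds 264 immunoglobulin genes, and antibody transcripts were measured in 1 experiment only. They summed to 13600 and 17500 CPM of all deposited counts in the HC controls and to 6490, 3900 and 5930 CPM in HC 1, HC 2 and HC 3. Every library labelled HC was below both controls, as were Mzb1 and Pou2af1 of antibody-secreting and B cells. With 3 against 2 libraries an exact two-sided permutation test cannot reach the threshold, its smallest p being 0.2.

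Reg3g, a lectin of the injured exocrine pancreas, had 919, 1147 and 1908 CPM in the MC controls and 2693, 1922 and 1887 CPM in MC. It had 175 and 55.1 CPM in the HC controls and 33.2, 43.4 and 30.1 CPM in the libraries labelled HC. The tuft cell list, whose members are chemosensory epithelial genes, summed to 342 to 824 CPM in the libraries labelled HC and 329 to 466 CPM in their controls, with 50.8 to 65.3 and 19.5 to 46.6 CPM in MC and its controls, and 0 of its 8 genes were called for the difference by edgeR, DESeq2 or limma voom or had an unadjusted p of at most 0.05.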
